A study of Rattus norvegicus with 6 samples.

Results

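The matrix metalloproteinases (Mmp), the ADAMTS proteases (Adamts) and the tissue inhibitors of metalloproteinases (Timp) were followed in rat cerebral arteries after subarachnoid haemorrhage (SAH), in which blood escapes into the fluid beneath the brain's outer membranes. Members were defined by symbol alone: Mmp followed by a number, Adamts followed by a number only, or Timp followed by a single digit, with each gene read from a probe set naming that gene and no other. The families themselves were chosen with earlier results of these data known. The rule gave 38 of 18166 genes, namely 20 Mmp, 14 Adamts and 4 Timp genes, and each of them had a single such probe set. Of 47 protein-coding RefSeq genes whose symbols match the rule, 9 were not analysed here: Mmp1b, Mmp24, Mmp24os, Mmp25, Adamts6, Adamts8, Adamts13, Adamts16 and Adamts20.

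Total RNA of cerebral arteries from male rats was hybridised to 6 Affymetrix arrays, 1 per sample, with 6 µg of RNA labelled for each. The SAH group (arrays 1, 4 and 5) held arteries isolated 6 hours after the bleed, and the sham group (arrays 6, 7 and 8) held arteries of sham-operated rats, for which the labels give no time after surgery. The labels give neither strain nor age of the rats, nor how the bleed was made, and do not say whether an array held the arteries of 1 animal or several, so the spread between arrays may be partly technical. The values are log2 expression values made with the RMA method, in which a difference of 1 is a doubling, and the number of arrays limits the precision. Single values are always listed in the order 1, 4, 5 for SAH and 6, 7, 8 for sham surgery.

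Mmp enzymes are zinc-dependent proteases that cut collagens, elastin, proteoglycans and basement membrane proteins, most of them after removal of a propeptide that keeps the enzyme silent. ADAMTS proteases share the metalloprotease fold and are known for cutting the large proteoglycans versican and aggrecan, for trimming procollagens and for other matrix substrates. TIMP proteins bind the active site of Mmp enzymes, and of some ADAMTS proteases, and block it. In blood vessels the 3 families remodel the matrix between smooth muscle cells and the basement membrane, and neutrophils and macrophages bring some of the Mmp enzymes into inflamed tissue.

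Markers of smooth muscle (8 of 8 measured), endothelium (8 of 8) and fibroblasts (9 of 9) lay above the arrays' own median log2 value on at least 3 arrays, as did the monocyte and macrophage markers (14 of 14), where 62.3% of all genes did. Markers of astrocytes (5 of 5) and oligodendrocytes (4 of 5) lay above it as well, and their part in the results was not tested. Sham array 8 stood apart from sham arrays 6 and 7. Over the 13 measured neutrophil markers the mean log2 value was 6.83, 6.88 and 8.10 after sham surgery and 7.72, 7.75 and 8.47 after SAH. Values without sham array 8 are given further on for the members whose difference it moved most.

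No member passed the threshold, an adjusted p under 0.05 in limma's moderated test (Benjamini-Hochberg, over 36495 probe sets), where 1.29% of all genes passed. None had an adjusted p under 0.10 either, where 2.92% of all genes did. At an unadjusted p under 0.05, limma gave 10 of 38 members (26.3%) against 18.6% of all genes. Of these, Mmp13, Mmp12, Mmp3 and Timp1 were higher in SAH arteries (10.5% of members against 8.16% of all genes), and Adamts5, Adamts2, Adamts12, Mmp14, Mmp16 and Timp4 were lower (15.8% against 10.5%). A log2 difference of at least 1 in size was found for 4 members, Mmp13, Mmp8, Mmp3 and Mmp12, all higher in SAH arteries. That was 10.5% of the members, against 1.68% of all genes with such a difference in that direction. The values of the 2 groups did not overlap for 9 members (23.7%), a share near that of all genes (26.8%). Of these, Timp1, Mmp20 and Adamts19 lay higher after SAH (11.4% of all genes did) and Adamts5, Adamts2, Adamts12, Mmp16, Timp2 and Timp4 lower (15.4% of all genes did). The median difference over the members was 0.02, with 21 above 0 and 17 below, and over all genes it was -0.01.

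**Figure D1:**
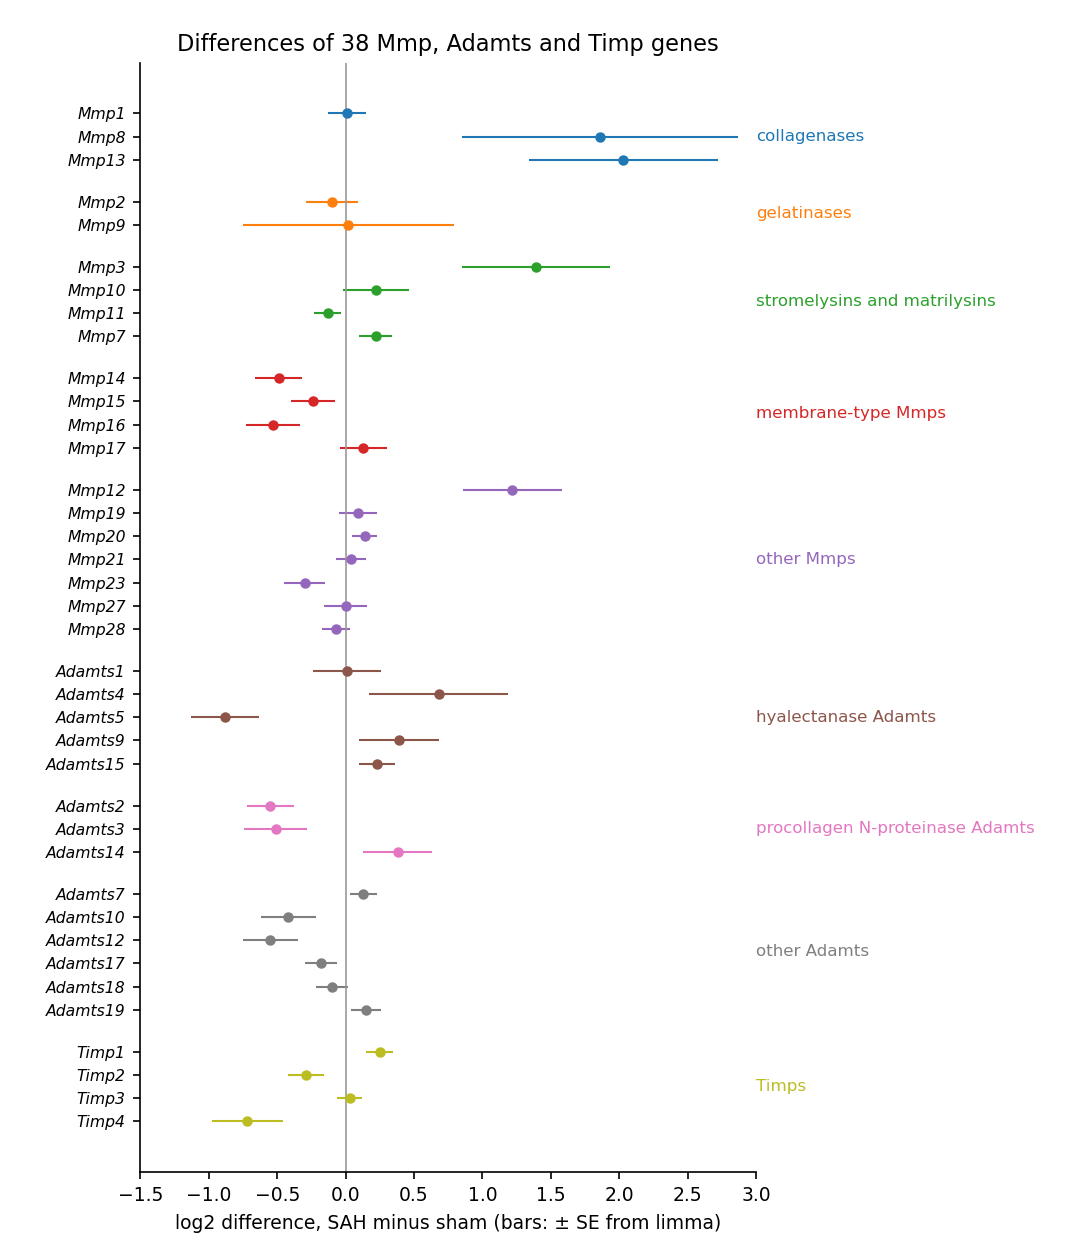
Each point is the log2 difference of 1 member, SAH minus sham (3 arrays each), and the bar spans the standard error from limma on either side, with members grouped and coloured by role. Mmp13, Mmp8, Mmp3 and Mmp12 lie between 1.22 and 2.03, and Adamts5, at -0.88, has the lowest value.

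Among the collagenases, which cut intact fibrillar collagen, the difference was widest for Mmp13, the gene of collagenase-3 (probe set 17841846). Mmp13 read 10.46, 9.35 and 10.56 after SAH and 7.12, 7.47 and 9.71 after sham surgery. All SAH arrays lay above sham arrays 6 and 7, but sham array 8 lay above SAH array 4, so the groups overlapped. The Mmp13 means were 10.13 ± 0.67 and 8.10 ± 1.40 (SD, n = 3 each), a difference of 2.03 ± 0.69 (SE) or 4.07-fold (95% interval 0.40 to 3.65; limma adjusted p = 0.250).

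Mmp8, the collagenase stored in neutrophil granules (probe set 17841911), read 9.28, 9.81 and 10.70 after SAH and 6.65, 6.97 and 10.58 after sham surgery. Sham array 8 read above SAH arrays 1 and 4 and far above the other sham arrays. The Mmp8 difference of 1.86 ± 1.01 (SE) was smaller than the sham SD of 2.18 (n = 3; limma adjusted p = 0.468). The third collagenase, Mmp1, was not above the array median on any array and differed by 0.01 ± 0.14.

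Mmp3 encodes stromelysin-1, which degrades proteoglycans and fibronectin and can activate other Mmp proenzymes (probe set 17841872). Its values were 8.91, 8.87 and 9.34 after SAH, against 6.82, 7.10 and 9.02 after sham surgery. The SAH arrays lay close together, and sham array 8 lay among them. The Mmp3 difference was 1.39 ± 0.54 (SE) or 2.63-fold (n = 3 each; limma adjusted p = 0.309). Of its relatives, stromelysin-2 (Mmp10) differed by 0.22 ± 0.24, stromelysin-3 (Mmp11) by -0.13 ± 0.10 and matrilysin (Mmp7) by 0.22 ± 0.12, and none of these 3 was above the array median on any array.

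Mmp12, macrophage elastase (probe set 17841858), read 8.67, 7.73 and 8.45 after SAH and 6.71, 6.70 and 7.77 after sham surgery. SAH arrays 1 and 5 lay above every sham array, while SAH array 4 and sham array 8 were nearly equal. The Mmp12 difference was 1.22 ± 0.36 (SE) or 2.33-fold (n = 3 each; limma adjusted p = 0.195). Mmp8, Mmp3 and Mmp12 were above the array median on 4 arrays, the 3 SAH arrays and sham array 8, and Mmp13 on these and sham array 7.

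**Figure D2:**
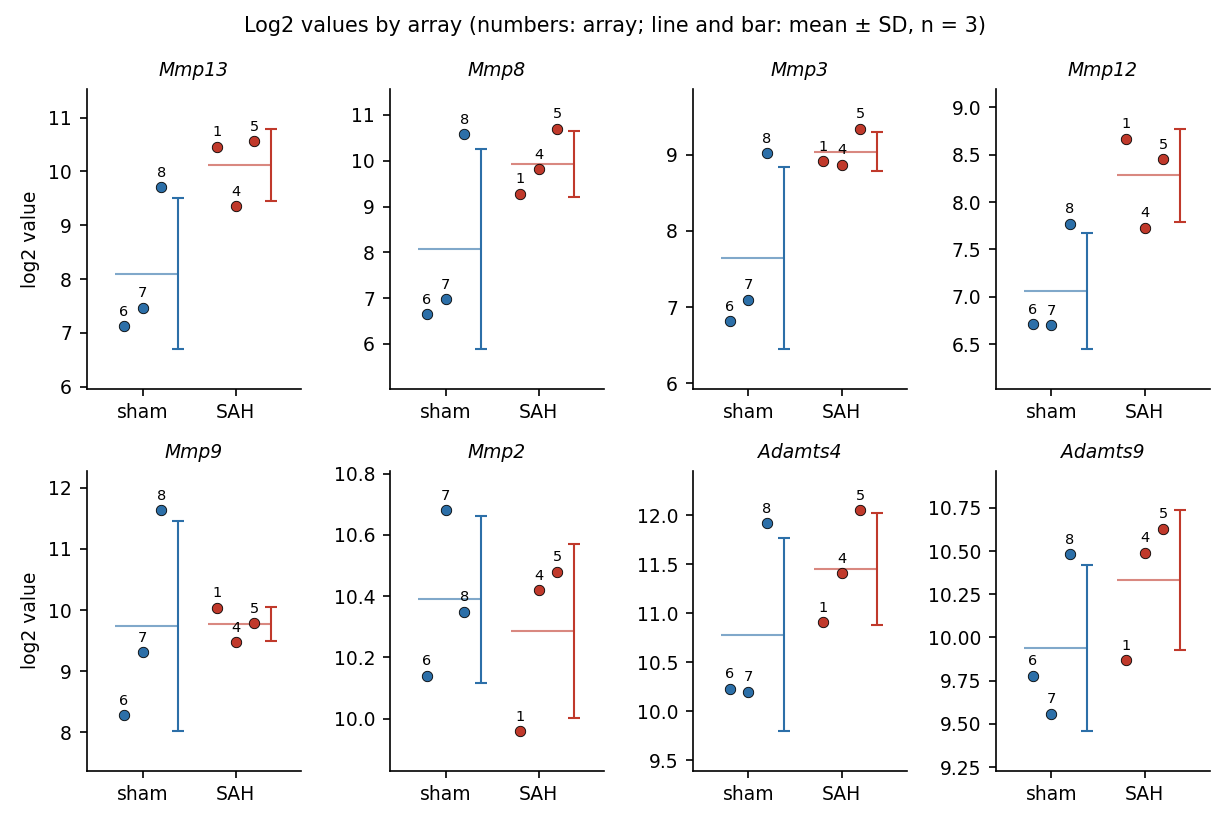
Log2 values of 8 proteases by array, with the array number at each point, sham in blue and SAH in red, a line at the group mean and a bar for the SD (n = 3 each); the vertical scales differ between genes. Sham array 8 is the highest sham array for 7 of the 8 genes, all except Mmp2, and for Mmp9 it is the highest of all 6 arrays, at 11.63. The 8 genes were picked for display, Adamts4 and Adamts9 after their values were seen. Over all members it was the highest sham array for 21 of 38 (55.3%), against 30.8% of all genes.

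These 4 genes belong to one run of Mmp genes in the rat genome. In the RefSeq annotation of the GRCr8 assembly, 10 Mmp genes follow each other on chromosome 8 with no other protein-coding gene between them, in the order Mmp13, Mmp12, Mmp1b, Mmp3, Mmp1, Mmp10, Mmp8, Mmp27, Mmp20 and Mmp7. All but Mmp1b were measured. Beside the 4 with a difference of at least 1, the other 5 differed by between -0.00 and 0.22 and were not above the array median on any array. None of the 29 members outside the run differed by 1 or more, where the range was -0.88 to 0.68.

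Promoters of 6 genes in this run carry a feature that the choice of members did not use. RefSeq promoters of 300 bases, from 250 before to 50 after the start, were found for 29 of the 38 members, and were searched on both strands for the letters TGACTCA or TGAGTCA, reverse complements of each other that bind AP-1, the Fos and Jun family of transcription factors. The letters were present in 6 member promoters, those of Mmp13, Mmp12, Mmp3, Mmp1, Mmp10 and Mmp7, and in 4.63% of all 33469 promoters. The 6 genes all belong to the run on chromosome 8, and their AP-1 letters began between 61 and 87 bases before the start. The promoters of Mmp8 and Mmp20, also in the run, were searched and lacked the letters. The letters TATAAA, searched on both strands, occurred in 12 of the 29 member promoters and in 14.2% of all promoters. The stretch from 120 bases before to 30 after the start is shown for the 6 genes and for Mmp8, which lacked the AP-1 letters, with the AP-1 letters and TATAAA (or TTTATA, its reverse complement) in capitals, in GRCr8:
Mmp13, chr8:12782709-12782858, plus strand: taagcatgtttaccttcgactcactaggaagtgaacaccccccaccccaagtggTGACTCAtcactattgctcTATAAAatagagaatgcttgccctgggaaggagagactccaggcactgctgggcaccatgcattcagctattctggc
Mmp12, chr8:12866532-12866681, plus strand: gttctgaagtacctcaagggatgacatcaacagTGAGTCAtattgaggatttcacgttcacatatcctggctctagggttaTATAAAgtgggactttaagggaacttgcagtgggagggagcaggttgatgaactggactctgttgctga
Mmp3, chr8:12925161-12925310, plus strand: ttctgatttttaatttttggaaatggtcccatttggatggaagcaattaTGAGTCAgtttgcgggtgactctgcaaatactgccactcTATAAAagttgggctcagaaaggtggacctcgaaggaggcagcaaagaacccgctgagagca
Mmp1, chr8:12943333-12943482, plus strand: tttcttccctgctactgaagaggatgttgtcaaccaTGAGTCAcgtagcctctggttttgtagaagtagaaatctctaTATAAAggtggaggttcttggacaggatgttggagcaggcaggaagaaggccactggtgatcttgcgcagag
Mmp10, chr8:12974587-12974736, plus strand: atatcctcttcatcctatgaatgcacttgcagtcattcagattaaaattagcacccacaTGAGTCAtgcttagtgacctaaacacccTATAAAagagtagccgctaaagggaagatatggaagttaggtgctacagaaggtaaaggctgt
Mmp7, chr8:13132923-13133072, plus strand: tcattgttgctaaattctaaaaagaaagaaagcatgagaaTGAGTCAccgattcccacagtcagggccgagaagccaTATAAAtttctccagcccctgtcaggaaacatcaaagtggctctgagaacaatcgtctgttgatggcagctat
Mmp8, chr8:13008770-13008919, plus strand: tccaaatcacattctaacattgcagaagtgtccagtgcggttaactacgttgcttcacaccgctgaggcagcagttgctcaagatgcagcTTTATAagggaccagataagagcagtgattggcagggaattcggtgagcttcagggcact
Among the genes that hold the AP-1 letters, Mmp13, Mmp12 and Mmp3 differed by 2.03, 1.22 and 1.39, and Mmp1, Mmp10 and Mmp7 by 0.01, 0.22 and 0.22. Mmp1, Mmp10 and Mmp7 were not above the array median on any array, which limits what their differences show. Mmp8, without the letters, differed by 1.86. Whether the letters bear on the differences was not tested. A match of letters is a description of the sequence, and binding was not measured.

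The gelatinases Mmp2 and Mmp9 cut denatured collagen and the type IV collagen of basement membranes. Mmp9, which neutrophils store and many cells can induce (probe set 17768956), read 10.04, 9.48 and 9.79 after SAH and 8.28, 9.31 and 11.63 after sham surgery. All SAH values lay between the low sham arrays 6 and 7 and the high sham array 8. The Mmp9 difference was 0.02 ± 0.77 (SE), and its 95% interval from -1.79 to 1.84 leaves room for changes in either direction (n = 3 each; limma adjusted p = 0.994). Mmp2, made by vascular and connective tissue cells (probe set 17731914), read 9.96, 10.42 and 10.48 after SAH and 10.14, 10.68 and 10.35 after sham surgery. The Mmp2 groups overlapped along most of their range, and the difference was -0.10 ± 0.19 (95% interval -0.56 to 0.35; limma adjusted p = 0.860).

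Membrane-type Mmp enzymes sit on the cell surface, where Mmp14 activates the Mmp2 proenzyme. Mmp14 (probe set 17698634) read 10.44, 10.01 and 9.91 after SAH and 10.43, 10.78 and 10.60 after sham surgery. SAH arrays 4 and 5 lay below every sham array, and SAH array 1 matched sham array 6. The Mmp14 difference was -0.49 ± 0.17 (SE), 1.40-fold lower (n = 3 each; limma adjusted p = 0.257). Mmp16 (probe set 17797426) read 7.30, 7.75 and 7.77 after SAH and 7.97, 7.96 and 8.48 after sham surgery, with no overlap between the groups and a difference of -0.53 ± 0.20 (limma adjusted p = 0.285). Mmp15 and Mmp17, the other 2 of this class, differed by -0.24 ± 0.16 and 0.13 ± 0.17.

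Of the remaining Mmp genes, Mmp19 differed by 0.09, Mmp23 by -0.30 and Mmp28, known as epilysin, by -0.07, with limma adjusted p between 0.431 and 0.828. Mmp20, the tooth enamel protease enamelysin, Mmp21 and Mmp27 were not above the array median on any array, and their differences ran from -0.00 to 0.14. The Mmp20 groups did not overlap, with SAH values of 6.80 to 6.89 and sham values of 6.62 to 6.78.

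The ADAMTS enzymes that cut versican and aggrecan (Adamts1, Adamts4, Adamts5, Adamts9 and Adamts15) did not lie on one side of 0. Adamts5 (probe set 17667628) read 9.73, 9.22 and 9.96 after SAH and 10.12, 10.62 and 10.83 after sham surgery. Every SAH array lay below every sham array. The Adamts5 difference was -0.88 ± 0.25 (SE) or 1.85-fold lower, with the smallest p of all members (n = 3 each; limma adjusted p = 0.182).

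Adamts4, which with Adamts9 was singled out after its values were seen (probe set 17681866), read 10.91, 11.41 and 12.05 after SAH and 10.23, 10.20 and 11.92 after sham surgery. As with Mmp8 and Mmp3, sham array 8 lay within the range of the SAH arrays and the other sham arrays below it. The Adamts4 difference was 0.68 ± 0.51 (SE; limma adjusted p = 0.612), and that of Adamts9 was 0.39 ± 0.29. Adamts15 differed by 0.23 ± 0.13. Adamts1, next to Adamts5 on chromosome 11 in GRCr8 with no other protein-coding gene between them, differed by 0.01 ± 0.25, with SAH values of 12.06 to 12.68 and sham values of 12.05 to 12.86.

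The ADAMTS enzymes that remove the amino-terminal propeptide of procollagens are Adamts2, Adamts3 and Adamts14. Adamts2 (probe set 17645524) read 9.97, 10.07 and 9.44 after SAH and 10.34, 10.32 and 10.46 after sham surgery, without overlap. The Adamts2 difference was -0.55 ± 0.17 (SE; n = 3 each; limma adjusted p = 0.225), and the sham arrays lay within a range narrower than the gap to the nearest SAH array. Adamts3 (probe set 17688908) read 8.47, 8.64 and 8.48 against 8.59, 9.01 and 9.53 in the same array order, with SAH array 4 just above sham array 6 and a difference of -0.51 ± 0.23 (limma adjusted p = 0.371), which was -0.27 ± 0.16 without sham array 8. Adamts14 differed by 0.38 ± 0.25, by 0.68 without SAH array 1 and by 0.19 without SAH array 4.

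Among the other ADAMTS genes, Adamts12, whose product cuts cartilage oligomeric matrix protein (probe set 17736515), read 9.19, 9.54 and 8.71 after SAH and 9.72, 9.61 and 9.77 after sham surgery. The groups did not overlap, with SAH array 4 close to sham array 7, and the Adamts12 difference was -0.55 ± 0.20 (SE; limma adjusted p = 0.282). Adamts10, a protease tied to fibrillin microfibrils, differed by -0.42 ± 0.20, Adamts7 by 0.13 ± 0.10, Adamts17 by -0.18 ± 0.12, Adamts18 by -0.10 ± 0.12 and Adamts19 by 0.15 ± 0.11. Adamts18 and Adamts19 were not above the array median on any array and Adamts17 only on sham array 6.

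The inhibitors did not share a direction. Timp1, the inducible family member (probe set 17875665), read 13.66, 13.56 and 13.64 after SAH and 13.31, 13.32 and 13.49 after sham surgery. Every SAH array lay above every sham array, by a small margin: the Timp1 difference was 0.25 ± 0.10 (SE) or 1.19-fold (n = 3 each; limma adjusted p = 0.316).

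Timp4, an inhibitor found in heart and vessels (probe set 17793946), read 9.56, 9.58 and 8.64 after SAH and 10.14, 9.83 and 9.99 after sham surgery. The Timp4 groups did not overlap, SAH array 5 lay lowest, and the difference was -0.72 ± 0.26 (SE) or 1.65-fold lower (n = 3 each; limma adjusted p = 0.272). Without SAH array 5 the Timp4 difference was -0.41 ± 0.13 (limma adjusted p = 0.362). The same array moved Adamts2 to -0.35, Adamts12 to -0.34, Timp2 to -0.16 and Mmp23 to -0.18 when left out.

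Timp2, which also takes part in Mmp2 activation with Mmp14 (probe set 17663810), read 12.12, 12.13 and 11.76 after SAH and 12.39, 12.21 and 12.27 after sham surgery, without overlap, and differed by -0.29 ± 0.13 (limma adjusted p = 0.390). Timp3, which binds to the extracellular matrix (probe set 17834517), read 13.28, 13.34 and 13.26 against 13.21, 13.24 and 13.32 in the same array order. Its difference of 0.03 ± 0.09 had a 95% interval from -0.18 to 0.25 (limma adjusted p = 0.912).

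**Figure D3:**
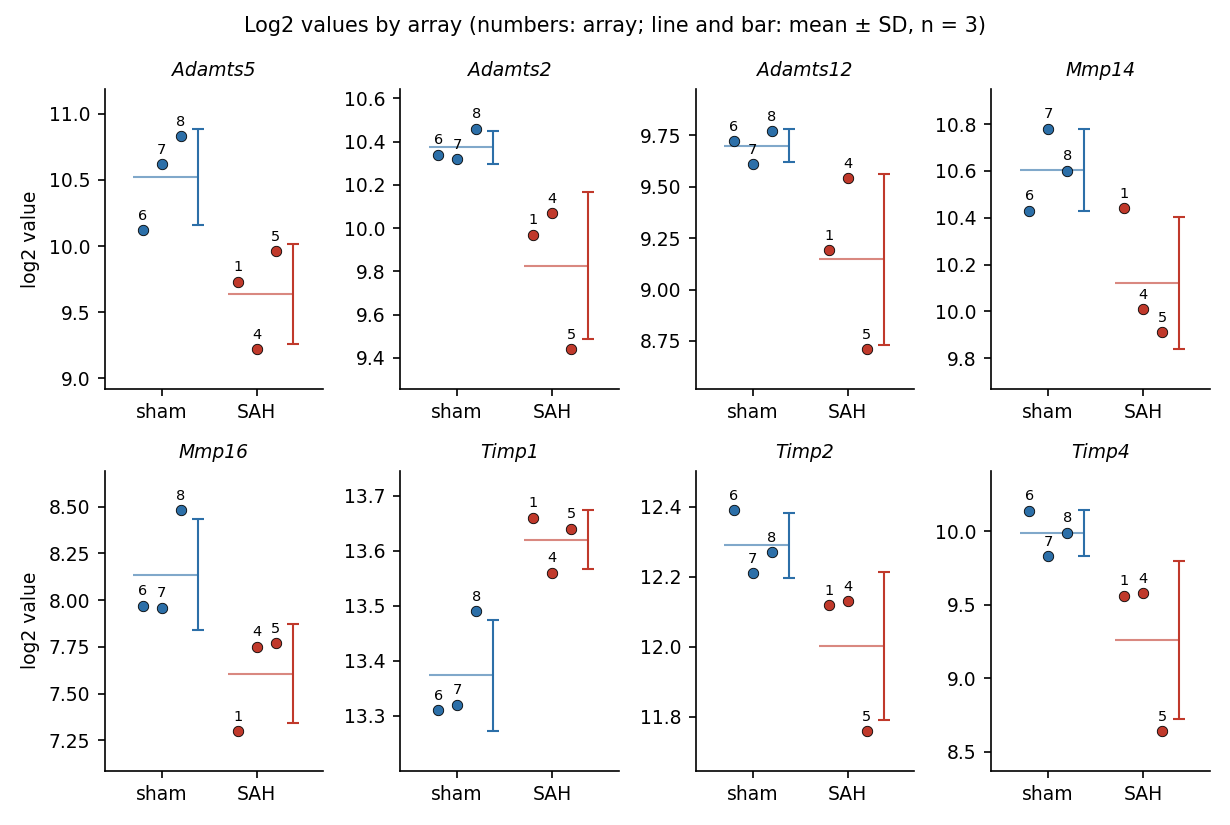
Log2 values of 8 further members by array, with the array number at each point, sham in blue and SAH in red. A line marks the group mean and a bar the SD (n = 3 each), and the vertical scales differ between genes. Adamts5, Adamts2, Adamts12, Mmp16, Timp2 and Timp4 lie below the sham arrays on every SAH array, and Timp1 lies above them.

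Without sham array 8, Mmp3 passed the threshold: it differed by 2.08 ± 0.19 (SE; limma adjusted p = 0.0265), in a fit where 0.523% of all genes passed. In the same fit Mmp8 differed by 3.12 ± 0.40, Mmp13 by 2.83 ± 0.38, Mmp12 by 1.58 ± 0.28 and Adamts4 by 1.25 ± 0.32, with limma adjusted p of 0.0615, 0.0690, 0.122 and 0.215. Mmp9 differed by 0.97 ± 0.33 there (limma adjusted p = 0.314). Of the smaller differences, that of Adamts9 moved to 0.66, Adamts1 to 0.26 and Adamts10 to -0.60 without sham array 8. In that fit Mmp16 differed by -0.35, Mmp15 by -0.11 and Mmp10 by 0.09. The groups did not overlap there for 25 of 38 members (65.8%), against 38.8% of all genes. Sham array 8 had already been seen to lie apart on several members, so this count is a description and no separate support. With any other array left out the share was 26.3% to 39.5% of members, against 32.9% to 43.2% of all genes. Without any other single array no member passed. Leaving out sham array 6 gave 0.98 for Mmp3, 1.15 for Mmp8, 1.54 for Mmp13 and -0.71 for Mmp9, the lowest leave-out values of these 4 genes. Adamts5 stayed between -1.09 and -0.68 in the 6 fits.

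**Figure D4:**
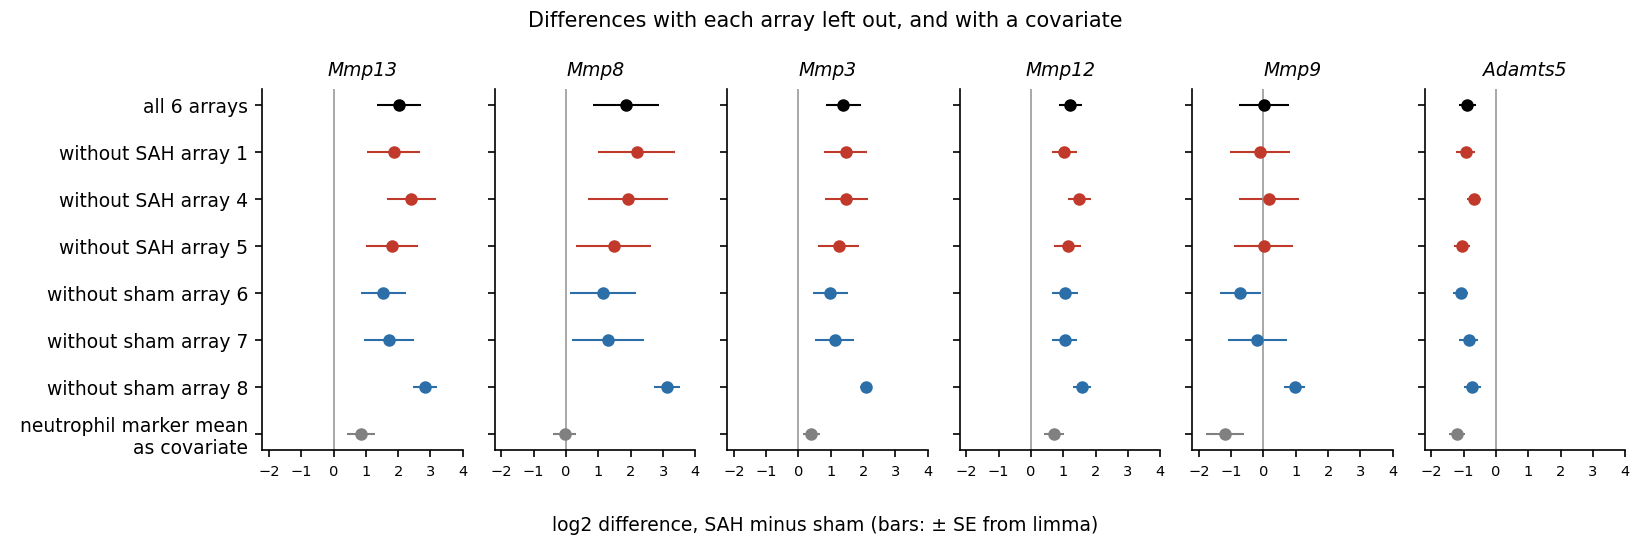
Log2 difference, SAH minus sham, with the standard error from limma as bars, for 6 members with all 6 arrays (black), with 1 SAH array (red) or 1 sham array (blue) left out, and with the mean of the neutrophil markers as a covariate (grey). Mmp3, Mmp8 and Mmp13 move to 2.08, 3.12 and 2.83 without sham array 8, and Mmp8 moves to -0.04 with the covariate.

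Sham array 8 lay at least 1 log2 unit above both other sham arrays for 6 members, Mmp8, Mmp9, Mmp13, Mmp3, Mmp12 and Adamts4, and for 0.82% of all genes. Of the 13 measured neutrophil markers 7 met the same condition, S100a8, S100a9, Csf3r, Cxcr2, Fpr1, Trem1 and Ngp. The other 6, Cxcr1, Mpo, Elane, Ltf, Camp and Padi4, did not, and their differences between SAH and sham lay between -0.13 and 0.20. A pair of the 7, chosen after their values were seen, is given by array. Trem1, an activating receptor of neutrophils and monocytes, read 7.77, 7.66 and 10.04 after sham surgery and 9.99, 9.91 and 10.94 after SAH. S100a9, an abundant neutrophil calcium-binding protein, read 6.68, 7.34 and 10.63 and then 9.47, 9.92 and 10.96 in the same order. On both genes sham arrays 6 and 7 were lowest, as they were on Mmp8. Over the whole list none passed the threshold, 9 of 13 had a difference above 0 and the median difference was 0.27. The granule genes Mpo, Elane, Ltf and Ngp, and Cxcr1, were not above the array median on any array. The list mean ranged from 7.72 to 8.47 in the SAH group and from 6.83 to 8.10 in the sham group. High values on sham array 8 were not limited to neutrophil markers. Over 19 measured genes known to induce Mmp genes, the mean was 9.69, 9.70 and 10.58 after sham surgery. After SAH it was 9.78, 9.93 and 10.41, so sham array 8 had the highest inducer mean of all arrays.

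In a fit with each array's neutrophil marker mean as a covariate, Mmp8 differed by -0.04 ± 0.35 (SE), Mmp3 by 0.40 ± 0.26, Mmp13 by 0.84 ± 0.43, Mmp12 by 0.71 ± 0.32 and Mmp9 by -1.20 ± 0.59. Adamts4 differed by -0.27 ± 0.18 and Adamts9 by -0.06 ± 0.22 there. The marker mean was itself lowest on sham arrays 6 and 7, so group and covariate overlap in this fit. Adamts5 differed by -1.21 ± 0.24 and Mmp16 by -0.81 ± 0.17 in that fit, and no member passed, against 0.127% of all genes (limma adjusted p of 0.204 for Adamts5 and 0.226 for Mmp16). Whether these transcripts came from neutrophils was not tested. In arteries taken whole, more or fewer cells of a type and more or less RNA per cell cannot be told apart.

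**Figure D5:**
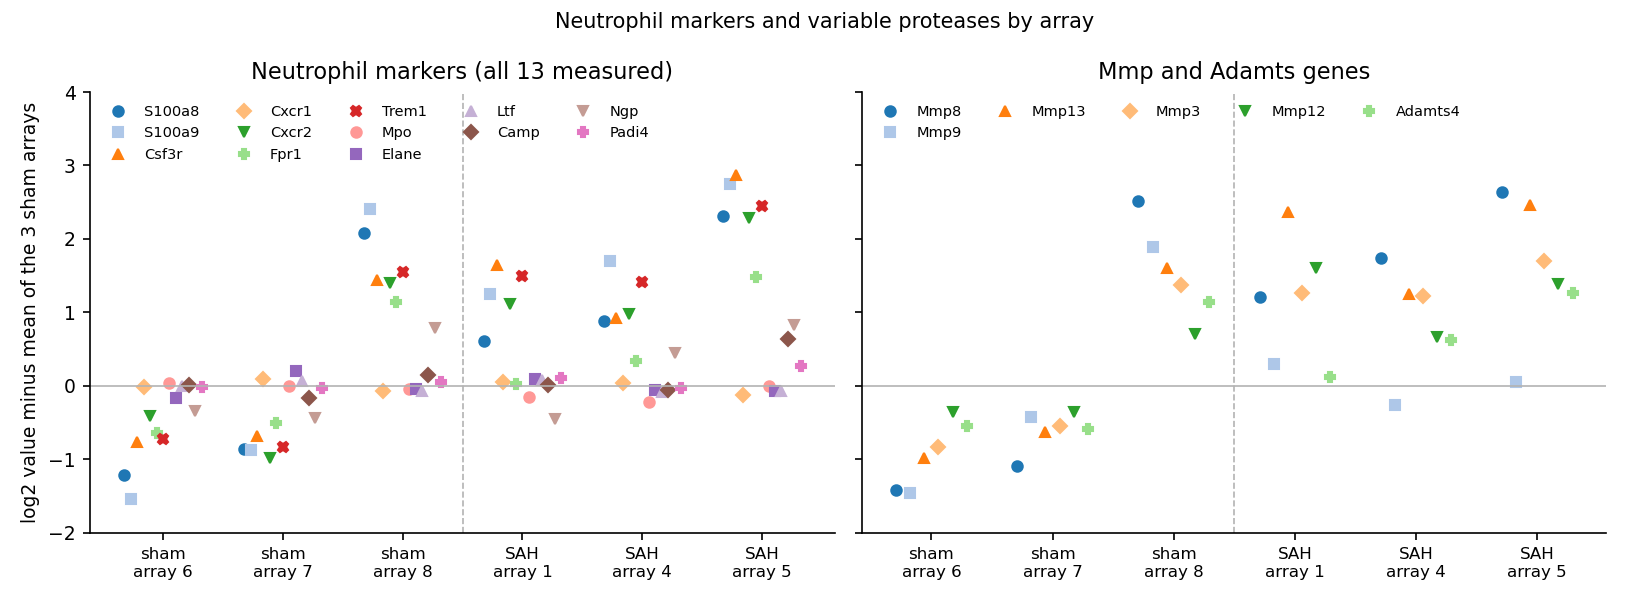
Log2 values minus the mean of the 3 sham arrays, by array, for all 13 measured neutrophil markers (left) and the 6 proteases chosen because sham array 8 lay at least 1 above the other sham arrays (right), with symbols set side by side within an array for legibility. On sham array 8, 7 of the 13 markers lie at least 1 above both other sham arrays, and the other 6 stay near 0 on the sham arrays.

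Monocyte and macrophage markers split by gene. Ccr2, the receptor of recruited monocytes, read 9.94, 10.17 and 10.33 after SAH and 7.41, 7.65 and 9.82 after sham surgery, a difference of 1.86 ± 0.59 (SE; limma adjusted p = 0.228). None of the 14 passed (median difference -0.43, with 6 of 14 above 0). At an unadjusted p under 0.05 limma gave Ccr2 with a positive difference and 6 with a negative one, Cd163 (-1.29 ± 0.44), Mrc1 (-1.24 ± 0.39), C1qa, C1qb, C1qc and Csf1r. The pan-macrophage markers Cd68 and Aif1 differed by 0.37 ± 0.18 and 0.21 ± 0.11, and Msr1 by 0.05 ± 0.17. The list mean ranged from 9.49 to 9.76 in SAH and from 9.60 to 10.11 in sham arrays. Their part in the Mmp12 values was not tested.

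Activators, other inhibitors and substrates of the proteases were read from lists of genes named for their roles. Of 12 activators, among them furin and the plasminogen system, which remove Mmp propeptides, none passed (median difference 0.13, with 9 of 12 above 0). The 2 with the smallest p were the kallikrein gene Klk1, at 0.46 ± 0.11 (SE), and Plat, tissue plasminogen activator, at 0.35 ± 0.19. Klk1 was not above the array median on any array.

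Of 10 other inhibitors and regulators none passed (median difference 0.02, with 5 of 10 above 0). Serpinb2, an inhibitor of urokinase and tissue plasminogen activator, read 9.68, 8.07 and 8.18 after SAH and 5.87, 6.07 and 6.65 after sham surgery. All SAH arrays lay above all sham arrays by over 1 log2 unit, and the Serpinb2 difference was 2.45 ± 0.44 (SE; limma adjusted p = 0.0733). Reck, a membrane-anchored inhibitor of Mmp enzymes, read 10.05, 10.07 and 9.87 against 10.65, 10.66 and 10.44 in the same array order. The Reck difference was -0.59 ± 0.11, again without overlap (limma adjusted p = 0.0809).

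None of 13 Adam and ADAMTS-like relatives passed (median difference -0.05, with 4 of 13 above 0), and Adam23 and Adamtsl3 had the smallest p, at -0.74 ± 0.16 (SE) and -0.50 ± 0.15. In the list of proteoglycan substrates 1 of 10 genes passed as higher in SAH arteries and none passed as lower. The gene that passed was Vcan, which encodes versican, the proteoglycan cut by Adamts5 and its relatives. Vcan read 10.86, 11.40 and 11.51 after SAH and 9.29, 9.37 and 9.93 after sham surgery (difference 1.73 ± 0.23; limma adjusted p = 0.0326). The Vcan call was kept without SAH array 1 or sham array 8, and was lost without any one of SAH arrays 4 and 5 and sham arrays 6 and 7 (differences 1.60 to 1.65; limma adjusted p of 0.117 to 0.170) and with the neutrophil covariate (1.37 ± 0.19; limma adjusted p = 0.114). The median difference of that list was -0.01, with 4 of 10 above 0.

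None of 14 collagen and basement membrane genes passed (median difference -0.03, with 6 of 14 above 0), with the laminin chain genes Lamc1 at 0.33 ± 0.13 (SE) and Lama4 at -0.27 ± 0.11. None of 19 cytokines and transcription factors known to induce Mmp genes passed either (median difference 0.09, with 11 of 19 above 0). Runx2 and Fos had the smallest p, at 0.35 ± 0.14 and -1.04 ± 0.45. Fos, an AP-1 subunit, read 9.48, 9.45 and 10.59 after SAH and 10.78, 10.16 and 11.68 after sham surgery. Other AP-1 subunits, chosen after their values were seen, differed by 0.09 ± 0.46 (Fosl1), 0.22 ± 0.18 (Jun), -0.28 ± 0.20 (Junb) and -0.20 ± 0.13 (Fosb).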

How the data were processed

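Cerebral artery RNA of 3 SAH and 3 sham samples was measured on 6 arrays. The deposited log2 values were made by the authors with Affymetrix Expression Console 1.1.2 and RMA, per the submitters' processing notes. Its settings were not given in the sources used here. The values were used without further normalization. Of 36685 probe sets, 190 controls were set aside and 36495 tested. GEO's platform annotation named 1 gene for 18511 of them, several for 575 and none for 17409. A gene was read from its probe set with the highest mean.

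The contrast of SAH with sham was fitted in limma 3.58.1 (R 4.3.3; lmFit and eBayes, two-sided, no covariate), and p-values were adjusted by Benjamini-Hochberg over every tested probe set, with a threshold of 0.05. Values are mean ± SD (n = 3) or differences ± SE with 95% intervals from the moderated fit. In data simulated for this comparison over 36495 probe sets, 77.4% of log2 changes of 1 and 98.6% of changes of 2 were recovered. Recovery meant an adjusted p under 0.05 in the right direction, with independent normal noise at each probe set's moderated SD. The rates are averages over randomly chosen probe sets. They do not give the rate for members with a wide spread, such as Mmp8 (sham SD 2.18).

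Values on every array were printed for the 12 members with the smallest p, those with a log2 difference of at least 1, and Mmp2, Mmp9, Mmp14 and the Timp genes. Adamts4 was added after its values were seen. From each pathway list, called genes or the 2 with the smallest p were named. Members and lists were chosen with earlier results of these data known. Alternatives were a filter on dim probe sets, repeated quantile normalization, median subtraction, trended robust eBayes, array weights, other thresholds, mean probe sets, each array left out and the neutrophil covariate. Promoters came from RefSeq (GRCr8); protein sequences were not used here.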

Additional observations from a re-analysis of the deposited data

How the results depend on the processing

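No paired analysis was possible because the 2 groups share no array numbers. Each member has 1 probe set, so averaging probe sets changed no member's value. The filter on dim probe sets and trended robust eBayes also left each member's difference as it was. Direction could not change under any of these settings. Of 208 values of 16 members given by array, a set without Adamts4, recomputed under the alternatives with these settings included, 201 kept their direction. The exceptions were Mmp8 (-0.04) and Mmp9 (-1.20) with the neutrophil covariate, and Mmp2 and Mmp9 with an array left out, where Mmp2 ran from -0.23 to 0.06 and Mmp9 from -0.71 to 0.97. Adamts4, also given by array but outside this set, went from 0.68 to -0.27 with the neutrophil covariate. With an array left out, between 0 and 1 members passed (Mmp3, without sham array 8), and 5 to 10 had an unadjusted p under 0.05 (11.9% to 22.5% of all genes). In these fits 10 to 25 members (26.3% to 65.8%, the highest without sham array 8) did not overlap, against 32.9% to 43.2% of all genes. The neutrophil covariate left 5 members with an unadjusted p under 0.05 (10.7% of all genes) and a median difference of -0.04. Over all probe sets, 295 passed, against 853 with the filter on dim probe sets (28 of 38 members kept), 458 with trended robust eBayes, 479 with array weights, 716 at an adjusted p under 0.10, 30 with the covariate and 41 to 929 with an array left out. The cause of these shifts was not tested. No member passed in any of these fits except Mmp3 without sham array 8. With the filter, limma adjusted p was 0.0876 for Adamts5 (difference -0.88) and 0.0966 for Mmp12 (difference 1.22). The 10 members not kept by it lay below the array median on most arrays, where the signal is close to background and limits what a difference shows.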

Other observations

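The spread among sham arrays was wide for a few members. The sham SD was 2.18 for Mmp8, 1.72 for Mmp9, 1.40 for Mmp13 and 1.20 for Mmp3, and the shares of all genes with a larger sham SD were 0.0165%, 0.0606%, 0.11% and 0.193%. Over all genes the median sham SD was 0.11, and over the members it was 0.15. In the SAH group the SD was 0.72 for Mmp8, 0.28 for Mmp9, 0.67 for Mmp13 and 0.26 for Mmp3, against a median of 0.15 over all genes and 0.26 over the members. At the other end, the sham SD was 0.06 for Timp3 and 0.07 for Adamts2.

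Markers of other cell types that an artery preparation could hold gave the following values. Smooth muscle markers had a median difference of -0.23, with 1 of 8 above 0 and 1 called lower (Smtn, by -1.18 ± 0.13, limma adjusted p = 0.0197, the call being lost without any one of SAH arrays 4 and 5 and sham arrays 6 and 7, with differences of -1.20 to -1.09 and adjusted p of 0.0701 to 0.125, and with the neutrophil covariate, at 0.0993), endothelial markers -0.24 with 3 of 8 above 0, and fibroblast markers -0.07 with 2 of 9 above 0; none of the last 2 lists passed. Astrocyte markers differed by a median of -0.31 (1 of 5 above 0), neuronal markers by -0.05 (4 of 8) and oligodendrocyte markers by 0.40 (5 of 5), with none called. T cell markers had a median of 0.31 (5 of 6 above 0), mast cell markers of 0.01 (3 of 5, none above the array median on any array) and erythroid markers of 0.34 (3 of 3), again with none called. Their part in the protease values was not tested.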
